A study of Mus musculus with 6 samples.

Results

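The alcohol, aldehyde and retinol dehydrogenases described here are 8 genes of 18193 named genes on the array: the alcohol dehydrogenases Adh1, Adh5 and Adh7, the aldehyde dehydrogenases Aldh1a1, Aldh1a2, Aldh1a3 and Aldh2, and the retinol dehydrogenase Rdh10. They were taken by symbol, with every probe set annotated to exactly 1 of them, which gave 17 of 45037 probe sets, and all 8 genes were measured. The genes were chosen partly on the GRK2+/- minus wild-type differences of these hearts, that of Adh1 above all, so this contrast is given for them as a description and was not tested. Hearts came from 9-month-old mice, 3 GRK2+/- and 3 wild-type (WT) littermates, with 1 Affymetrix array per heart. The GRK2+/- mice carried 1 targeted allele of Grk2 (strain B6.129-Adrbk1tm1Mca/J, crossed to C57BL/6J for more than 20 generations), which encodes a kinase that switches off activated G protein-coupled receptors such as the beta-adrenergic ones. The wild-type mice were C57BL/6J, and no group received a drug. The allele is present in every cell of the animal, so heart cells and all other organs carried it. RNA came from the upper part of the heart, so each array holds a mixture of cell types, and in such bulk tissue fewer cells of a type and less RNA per cell cannot be told apart.

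These enzymes act in sequence on alcohols and on vitamin A. Alcohol dehydrogenases and the membrane-bound retinol dehydrogenases oxidise an alcohol, such as ethanol or retinol, to an aldehyde, and aldehyde dehydrogenases oxidise the aldehyde to an acid. The Aldh1a enzymes turn retinal into retinoic acid, the ligand of nuclear receptors that shape the embryonic heart and act in the adult heart, while Aldh2 is a mitochondrial enzyme that clears acetaldehyde and aldehydes formed from oxidised lipids and is known for protecting heart muscle from ischaemia.

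The deposited levels are on a log2 scale, with array medians from 6.26 to 6.31 and values from 3.44 to 15.11. A level is relative probe brightness, so levels of different probe sets are not a measure of which messenger is more abundant. No probe set with a single symbol in the annotation used here named Grk2, and the genotypes were therefore not checked through its level. Differences are GRK2+/- minus WT on the log2 scale, with the standard error (SE, n = 3 hearts per group) of a limma fit over all probe sets. Each array is a separate heart, and precision is limited by having 3 per group.

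Adh1, the class I alcohol dehydrogenase that oxidises ethanol and retinol, had the largest difference of the 8 genes. Its probe set (1416225_at) read 9.34, 8.74 and 8.64 in GRK2+/- hearts 1, 2 and 3, and 10.10, 9.96 and 10.45 in WT hearts 1, 2 and 3. All 3 GRK2+/- hearts lay below all 3 WT hearts, with a gap of 0.62 between the highest GRK2+/- and the lowest WT heart. The difference was -1.26 ± 0.18, a level 2.40-fold lower, and its place was 7th from the lowest among the 45037 probe sets. Heart 1 was the GRK2+/- heart closest to the WT hearts, and hearts 2 and 3 were 0.60 and 0.70 below it. Adh1 also varied within the groups: its within-group SD of 0.32 lay at the 99.3rd percentile of all probe sets, and its range was 0.70 in GRK2+/- and 0.49 in WT hearts. Leaving out each heart in turn gave differences between -1.48 (without GRK2+/- heart 1) and -1.12 (without WT heart 3).

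Adh5 encodes the class III enzyme, which clears formaldehyde and reduces S-nitrosoglutathione. Its probe set with the highest mean (1416185_a_at) read 11.62, 11.66 and 11.60 in GRK2+/- hearts and 11.65, 11.57 and 11.65 in WT hearts. The hearts were almost level across both groups, with a difference of 0.01 ± 0.07 and a within-group SD of 0.04, at the 5.38th percentile of all probe sets. The other Adh5 probe set (1443380_at) was dim, at 5.09, 5.04 and 4.95 in GRK2+/- and 5.04, 5.20 and 5.34 in WT hearts. Its groups overlapped, with a difference of -0.17 ± 0.09, so the direction for Adh5 depended on the probe set.

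Adh7, the class IV enzyme known mainly from the stomach and other epithelia, read 6.90, 6.56 and 6.76 in GRK2+/- and 6.56, 7.01 and 6.89 in WT hearts on its brighter probe set (1450110_at). The groups overlapped fully, and the difference was -0.08 ± 0.12. The second Adh7 probe set (1421058_at) lay between 4.10 and 4.34 in all 6 hearts, at the 5.44th percentile of all probe sets, with a difference of -0.10 ± 0.08. At such dim levels most of the brightness may be background.

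**Figure D1:**
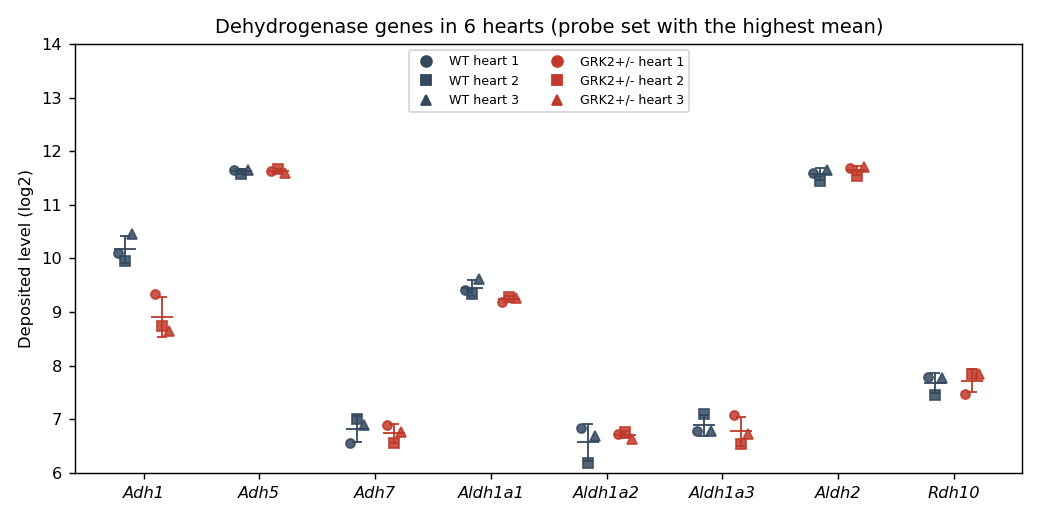
Deposited log2 level of each gene's probe set with the highest mean, in 3 WT hearts (dark) and 3 GRK2+/- hearts (red); points are single hearts, horizontal marks the group means and bars ± SD. The Adh1 hearts separate by genotype, from 8.64 to 9.34 against 9.96 to 10.45, whereas the Adh5 hearts lie between 11.57 and 11.66 in both groups.

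The 3 alcohol dehydrogenase genes lie on the same strand of chromosome 3 in the order Adh7, Adh1, Adh5, and the sequences around their starts are shown because these neighbours of a shared origin had such different values. Each window runs from 250 bases before the start to 50 bases after it and is taken from RefSeq (build GRCm38.p6, plus strand). The windows are chr3:138277335-138277634 for Adh1, chr3:138217523-138217822 for Adh7, and chr3:138436950-138437249 and chr3:138442843-138443142 for the 2 starts that RefSeq lists for Adh5; which of these the heart uses was not analysed here. Capitals mark matches on either strand to 4 short motifs. The first was TGTTCT, the half-site of the glucocorticoid receptor. The second was AGGTCA, the half-site of retinoic acid receptors and many other nuclear receptors. The third was the TATA box, searched as TATAAA. The last was the GC box of housekeeping promoters, searched as GGGCGG and read here from the opposite strand.
Adh1: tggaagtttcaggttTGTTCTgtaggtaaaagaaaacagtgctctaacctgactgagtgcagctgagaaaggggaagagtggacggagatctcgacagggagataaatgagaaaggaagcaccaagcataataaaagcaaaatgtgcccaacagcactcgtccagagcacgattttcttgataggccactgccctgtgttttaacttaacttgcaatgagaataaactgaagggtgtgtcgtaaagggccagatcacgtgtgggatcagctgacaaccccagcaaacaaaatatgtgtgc
Adh7: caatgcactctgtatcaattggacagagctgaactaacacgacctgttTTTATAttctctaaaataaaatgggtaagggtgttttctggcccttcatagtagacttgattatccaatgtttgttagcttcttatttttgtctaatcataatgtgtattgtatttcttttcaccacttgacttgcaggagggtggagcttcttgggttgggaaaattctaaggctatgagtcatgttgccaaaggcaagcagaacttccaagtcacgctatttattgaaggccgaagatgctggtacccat
Adh5 start 1: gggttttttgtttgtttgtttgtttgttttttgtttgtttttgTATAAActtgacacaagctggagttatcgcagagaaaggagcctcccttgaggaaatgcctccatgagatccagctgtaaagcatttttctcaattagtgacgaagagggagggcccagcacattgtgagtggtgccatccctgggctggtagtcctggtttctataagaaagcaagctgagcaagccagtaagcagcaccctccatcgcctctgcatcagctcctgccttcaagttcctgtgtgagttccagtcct
Adh5 start 2: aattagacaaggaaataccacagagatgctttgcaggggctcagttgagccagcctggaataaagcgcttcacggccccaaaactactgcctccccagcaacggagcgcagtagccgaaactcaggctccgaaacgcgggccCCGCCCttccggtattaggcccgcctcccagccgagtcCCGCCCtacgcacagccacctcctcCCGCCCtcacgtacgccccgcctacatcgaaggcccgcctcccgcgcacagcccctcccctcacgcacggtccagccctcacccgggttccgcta
The Adh1 window held 1 match, TGTTCT on the plus strand, beginning 235 bases before the start. The same letters, on either strand, were in 18.97% of all 32851 windows of the table, and no other searched motif was in the Adh1 window. The downstream Adh5 window was GC-rich, at 65.0% with 26 CG pairs, and held 3 GC boxes, a motif in 35.66% of all windows. The Adh1 window had 45.3% GC and 6 CG pairs, against medians of 52.7% and 7 over the table. Adh7 (39.3% GC) and the upstream Adh5 window (47.0% GC) each held 1 TATAAA, present in 13.62% of all windows, at 202 and 207 bases before the start. The Adh7 match was on the minus strand, opposite to the gene, and the Adh5 match on the plus strand. Whether either serves as a TATA box was not tested. AGGTCA was in none of the 4 windows shown and in 16.26% of all windows. RefSeq windows were matched for 5 of the 8 genes, these 3, Aldh1a1 and Aldh1a2, and neither Aldh1a1 window (43.3% and 47.0% GC) nor the Aldh1a2 window (78.0% GC, 50 CG pairs) held any of the 4 motifs. A match describes letters in a window and not a bound site.

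Between Adh7 and Adh5 the RefSeq gene order holds further members of the family, and the array measured 7 genes of this stretch, all named Adh. After Adh1 came Adh6a (0.16 ± 0.09), Adh6b (-0.04 ± 0.11), the pseudogene Adh6-ps1 (-0.14 ± 0.08) and Adh4 (-0.35 ± 0.08), and then Adh5. Adh4, the class II enzyme known mainly from liver, read 5.63, 5.49 and 5.57 in GRK2+/- and 5.80, 5.97 and 5.98 in WT hearts. Its groups did not overlap, but its mean lay at the 24.6th percentile of the gene table, low on the scale. In the test over all genes its adjusted p was 0.143 (limma, Benjamini-Hochberg). There 0 of 18193 genes had an adjusted p under 0.05, so not passing does not set Adh4 apart from other genes. No other alcohol dehydrogenase gene of this stretch had a difference as large as that of Adh1. Only Adh5 among them was bright, at the 96.5th percentile of the gene table. Adh7, Adh6b, Adh6a and Adh6-ps1 lay at the 42.3rd, 33.5th, 23.5th and 11.9th percentile. At such levels, as for Adh4, a fall of that size might not show. Related alcohol dehydrogenase messengers are similar in sequence, and how far their probes cross-react was not tested.

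**Figure D2:**
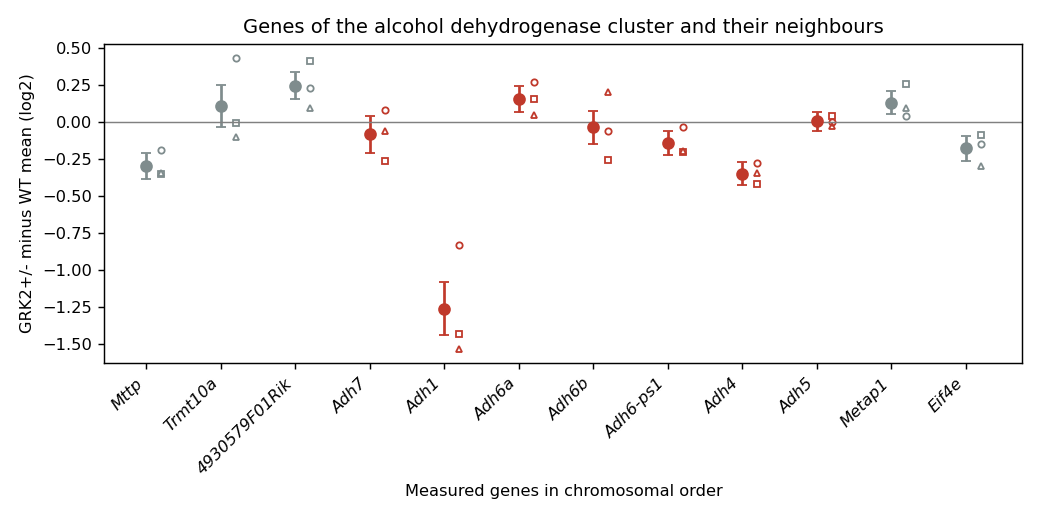
GRK2+/- minus WT difference (log2, filled points, bars ± SE) of the measured genes in chromosomal order, alcohol dehydrogenases in red and flanking genes in grey; open symbols are the 3 GRK2+/- hearts, each minus the WT mean. Adh1 lies at -1.26 and the other genes between -0.35 and 0.25.

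Aldh1a1 oxidises retinal to retinoic acid and is found in many adult tissues. Its only probe set (1416468_at) read 9.18, 9.28 and 9.27 in GRK2+/- hearts and 9.41, 9.33 and 9.61 in WT hearts. The GRK2+/- hearts all lay below the WT hearts, but by a gap of only 0.05, and the difference was -0.21 ± 0.09. Without WT heart 3, the highest, it was -0.13. With array medians set equal, the groups overlapped, with a difference of -0.18.

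Aldh1a2, the main source of retinoic acid in the embryo and in epicardium, read 6.73, 6.76 and 6.64 in GRK2+/- and 6.83, 6.18 and 6.70 in WT hearts (1422789_at). WT heart 2 was the lowest of the 6 and the groups overlapped, with a difference of 0.14 ± 0.14. Without WT heart 2 the difference was -0.06, so its sign rested on that heart.

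Aldh1a3, which acts mainly in developing eye and nasal tissue, had 3 probe sets, and none separated the groups. The brightest (1417642_at) read 7.08, 6.55 and 6.72 in GRK2+/- and 6.78, 7.10 and 6.78 in WT hearts, a difference of -0.10 ± 0.14. The other probe sets (1427395_a_at and 1448789_at) differed by 0.01 ± 0.08 and 0.07 ± 0.07. Their means lay at the 42.7th and 20.8th percentile of all probe sets, below the median.

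Aldh2 had 5 probe sets, and they did not share a direction. The brightest (1448143_at), at the 97.6th percentile, read 11.68, 11.54 and 11.71 in GRK2+/- and 11.60, 11.44 and 11.66 in WT hearts. The groups overlapped, and the difference was 0.08 ± 0.08. The next pair, 1434987_at and 1434988_x_at, differed by -0.08 ± 0.10 and -0.0021 ± 0.08, and the suffix of the latter marks probes that may also bind other messengers. The probe set 1457155_at gave the highest difference of all 17, 0.29 ± 0.12, with 7.04, 7.13 and 7.19 in GRK2+/- and 7.05, 6.55 and 6.88 in WT hearts. There, WT heart 1 lay just above GRK2+/- heart 1, so the groups overlapped through that heart, while after quantile normalisation they did not overlap. Without WT heart 2, the lowest, the difference was 0.15. The fifth probe set (1437410_at) differed by -0.06 ± 0.09 and its groups overlapped. For Aldh2 as a gene, the brightest probe set and the mean of all 5 gave 0.08 and 0.04.

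Rdh10 encodes the membrane enzyme that makes the first, rate-limiting step from retinol to retinal in the embryo. It read 7.47, 7.85 and 7.84 in GRK2+/- and 7.79, 7.46 and 7.78 in WT hearts (1426968_a_at), a difference of 0.05 ± 0.12. A single low heart in each group, GRK2+/- heart 1 and WT heart 2, set the spread. On the second probe set (1460632_at) the values were 6.35, 6.80 and 6.06 in GRK2+/- hearts and 6.42, 6.34 and 6.27 in WT hearts, with a difference of 0.06 ± 0.15. The low GRK2+/- heart was heart 3 there, so the 2 probe sets did not rank the hearts alike.

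**Figure D3:**
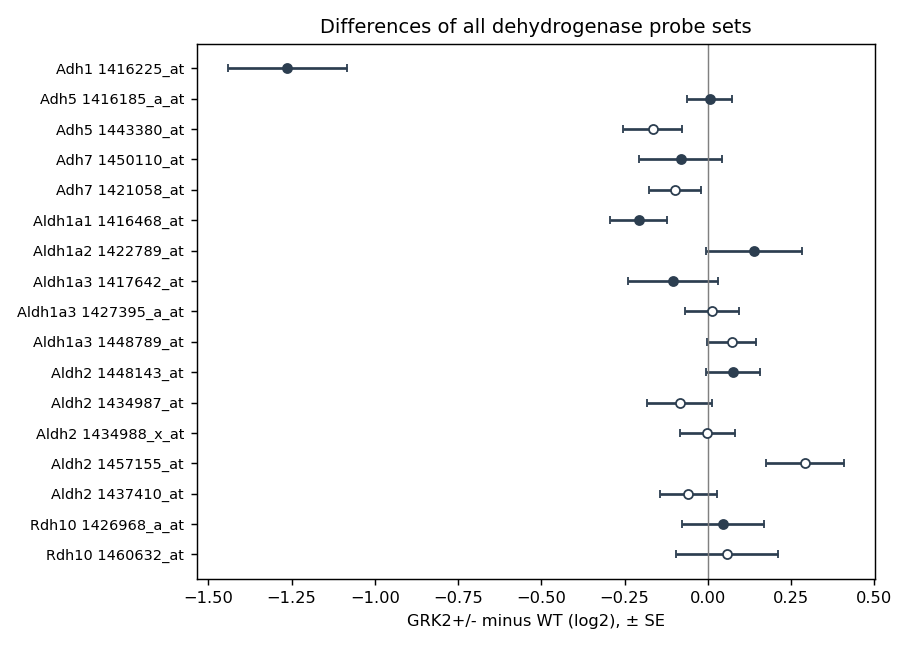
GRK2+/- minus WT difference (log2) of all 17 probe sets, with bars of ± SE; filled points are the probe set with the highest mean of each gene. Adh1 lies at -1.26 and the other 16 between -0.21 and 0.29.

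Over the 17 probe sets, 9 differences were below 0 and 8 above, with a median of -0.0021, against -0.021 over all probe sets. The groups did not overlap in 2 probe sets, Adh1 and Aldh1a1, both lower in GRK2+/- hearts, and in 0 probe sets in the other direction. Over the whole array the groups did not overlap, with GRK2+/- lower, in 11.2% of probe sets, and with GRK2+/- higher in 6.76%. Since the genes were chosen with this contrast known, nothing is read from the count of 2. Of the 17 probe sets 12 had a mean at or above that of the median probe set (6.28) and 5 below it.

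The 5 genes whose profile over the 6 hearts lay nearest to that of Adh1, by the root mean square difference after each gene was centred on its own mean, were Fkbp5 (0.13), Fam107a (0.20), Sult1a1 (0.22), Timp4 (0.24) and Arrdc2 (0.28). The distances of the other 7 dehydrogenases from Adh1 ran from 0.59 (Aldh1a1) to 0.75 (Aldh1a2 and Rdh10). Fkbp5, a co-chaperone of the glucocorticoid receptor and a target of it, read 8.55, 8.13 and 7.74 in GRK2+/- and 9.60, 9.18 and 9.82 in WT hearts. Its order of hearts was that of Adh1 in both groups: GRK2+/- heart 1 was highest and heart 3 lowest, and WT heart 3 was highest and heart 2 lowest. Fam107a, induced by glucocorticoids in other tissues, read 8.33, 7.62 and 7.50 in GRK2+/- and 9.38, 9.33 and 9.69 in WT hearts, again in that order. Sult1a1, a sulfotransferase of phenols, read 10.05, 9.37 and 9.52 in GRK2+/- and 10.40, 10.49 and 10.69 in WT hearts. Timp4, an inhibitor of matrix metalloproteinases, read 10.21, 9.35 and 8.92 in GRK2+/- hearts and 10.69, 10.46 and 10.58 in WT hearts. Arrdc2, an arrestin-domain gene, read 7.18, 6.28 and 6.84 in GRK2+/- hearts and between 7.70 and 7.74 in WT hearts. In each of these genes GRK2+/- heart 1 was the GRK2+/- heart nearest to the WT level. The genes were picked for this likeness, which includes the difference between groups, so their values are a description and carry no test.

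**Figure D4:**
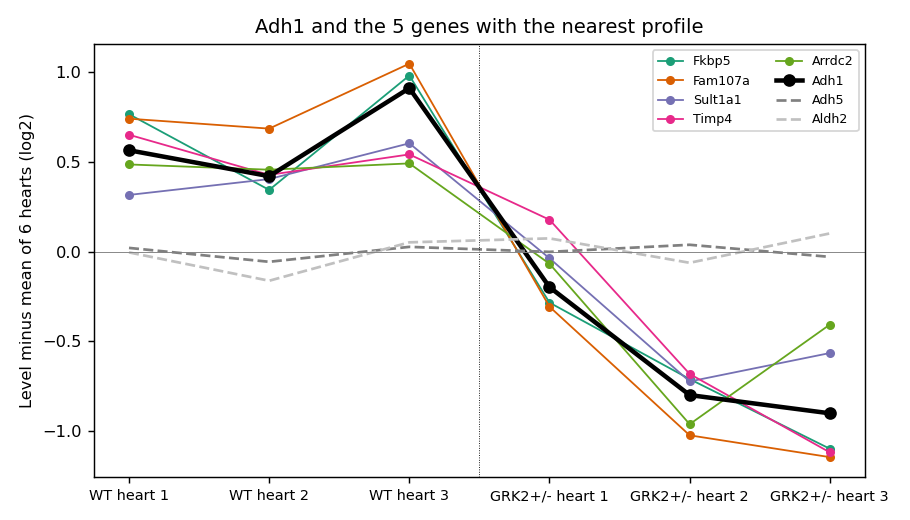
Level minus the mean of the 6 hearts (log2) for Adh1 (black) and the 5 genes with the nearest profile, with Adh5 and Aldh2 dashed for comparison; WT hearts are left of the dotted line and GRK2+/- hearts right of it, and lines join the hearts of a gene for legibility only. Adh1 and the 5 genes lie higher in each WT heart than in any GRK2+/- heart, and Adh5 and Aldh2 lie near 0.

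The other genes of retinoid, alcohol and aldehyde metabolism were read in 8 lists holding 104 genes, of which 91 were measured. In the limma fit over 18193 genes, an adjusted p under 0.05 was reached by 0% of all genes and by 0 of these 91, whose smallest adjusted p was 0.0961. At an unadjusted p under 0.05, 7 of the 91 (7.69%) were lower in GRK2+/- hearts and 8 (8.79%) higher, against 7.70% and 6.30% of all genes. These shares lie near the background. With array medians set equal, the split over all genes turned from 1146 higher and 1400 lower to 1546 higher and 890 lower. The medians of the lists ran from -0.12 to 0.07, against -0.02 over all genes. Counts of differences above and below 0 in each list are given without the share over all genes, so no direction is read from them.

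Among 13 measured genes of retinoid binding and transport 0 passed the adjusted test, 7 differences were above 0 and 6 below, and the median was 0.01, or -0.02 without GRK2+/- heart 3 or when each gene was read from its most variable probe set. Rbp7, a retinol-binding protein of endothelium and fat, read 9.51, 9.51 and 9.48 in GRK2+/- and 9.81, 9.95 and 9.80 in WT hearts, a difference of -0.35 ± 0.07 (limma adjusted p = 0.116) without overlap. Fabp5, which carries fatty acids and retinoic acid, differed by 0.34 ± 0.14, and Ttr, the blood carrier of thyroxine and of retinol-binding protein, by 0.12 ± 0.09, with overlap in both. Fabp5 was 0.23 without GRK2+/- heart 2. With the mean of its 4 probe sets Ttr was -0.11, and with the most variable one -0.32.

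Of 17 further retinol and retinal enzymes 0 passed, 12 differences were below 0 and 5 above, and the median was -0.05 (-0.02 with array medians set equal). The smallest p belonged to Rdh7 (-0.39 ± 0.10, limma adjusted p = 0.172), whose mean lay at the 11.0th percentile of the gene table. Rdh14, a retinol dehydrogenase, differed by -0.13 ± 0.07 without overlap, with 2 of 3 probe sets in that direction. With the mean of these probe sets it was -0.07, with the most variable one 0.02, and without WT heart 1 -0.09. The dim Rdh16 differed by -0.18 ± 0.10, and by -0.07 without GRK2+/- heart 1 and -0.11 without WT heart 2.

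Genes that degrade retinoic acid were few: 3 were measured, all 3 differences were below 0, and 0 passed. Their median was -0.12, and -0.09 with array medians set equal. Cyp26b1, the hydroxylase of retinoic acid that is also induced by it, read 6.43, 6.62 and 6.74 in GRK2+/- and 6.76, 6.85 and 6.96 in WT hearts. The groups did not overlap, with 6.74 beside 6.76, and the difference was -0.26 ± 0.09 (limma adjusted p = 0.276). Cyp26a1 (-0.11 ± 0.09) and Cyp2s1 (-0.12 ± 0.07) overlapped, and all 3 means were below that of the median gene (7.24). Cyp26a1 rested on single hearts: it was -0.03 without GRK2+/- heart 1, -0.06 without WT heart 2, -0.16 without WT heart 1 and -0.18 without GRK2+/- heart 3.

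Of the retinoic acid receptors and their coregulators 8 genes were measured, 4 above and 4 below 0, with a median of -0.02, and 0 passed. The sign of that median was not stable: it was 0.02 without GRK2+/- heart 2 or WT heart 1, and 0.01 with array medians set equal. The corepressor Nrip1 read 9.11, 9.22 and 9.18 in GRK2+/- and 8.77, 8.80 and 8.54 in WT hearts, a difference of 0.47 ± 0.08 (limma adjusted p = 0.0961). Only 3 of its 6 probe sets pointed that way. The mean of all 6 gave 0.20, and the most variable one 0.53. The coactivator Ncoa1 differed by 0.19 ± 0.06 without overlap (0.06 with the mean of its probe sets), and the receptor Rara by -0.17 ± 0.08 with overlap (-0.10 without WT heart 2). Rarb, a receptor that retinoic acid itself induces, differed by -0.05 ± 0.08.

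Among 16 measured genes that retinoic acid is known to induce or regulate, 12 differences were below 0 and 4 above, and 0 passed. The median was -0.06, and -0.03 with array medians set equal. Tgm2, a crosslinking transglutaminase, read 11.70, 11.72 and 11.57 in GRK2+/- and 11.98, 12.03 and 12.09 in WT hearts. The groups did not overlap and all 6 of its probe sets pointed the same way, with a difference of -0.37 ± 0.07 (limma adjusted p = 0.114, and 0.0339 with a prior trended on level). The homeobox gene Meis2 differed in the other direction, by 0.21 ± 0.08, in all 4 of its probe sets, and Cyp26b1 is given above. The list shares 7 of its measured genes with the preceding lists.

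The 16 other aldehyde dehydrogenases were all measured, with 6 differences above 0 and 10 below, a median of -0.01 (0.02 with array medians set equal), and 0 that passed. Aldh9a1, which oxidises aminoaldehydes on the way to carnitine, read 9.72, 9.73 and 9.86 in GRK2+/- and 9.46, 9.22 and 9.42 in WT hearts. Its groups did not overlap, and it was 0.41 ± 0.08 (limma adjusted p = 0.129), with both probe sets above 0. Aldh5a1, the mitochondrial enzyme of succinic semialdehyde, differed by 0.17 ± 0.07 without overlap, and Aldh1l1, a folate enzyme, by -0.18 ± 0.07 at a low level (23.9th percentile of the gene table) and by -0.32 with its most variable probe set.

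Of 10 measured genes of other alcohol metabolism, 6 differences were above 0 and 4 below, with a median of 0.07, and 0 passed. Beside Adh4, the dihydrodiol dehydrogenase Dhdh read 7.86, 8.23 and 8.12 in GRK2+/- and 7.70, 7.84 and 7.58 in WT hearts, a difference of 0.37 ± 0.11 (limma adjusted p = 0.211). The ethanol-oxidising cytochrome Cyp2e1 differed by -0.23 ± 0.09 at the 14.5th percentile of the gene table, and by -0.14 without WT heart 3. Of 16 measured genes that clear aldehydes or nitrosothiols, 7 differences were above 0 and 9 below, with a median of -0.08 (0.01 without GRK2+/- heart 1), and 0 passed. The smallest p were those of Nos1 (-0.21 ± 0.10), the glutathione transferase of lipid aldehydes Gsta4 (-0.14 ± 0.07) and Gss (-0.11 ± 0.07). Nos1 was -0.10 with the mean of its probe sets, -0.12 without WT heart 2 and -0.33 without WT heart 1. Gsta4 was -0.09 without GRK2+/- heart 1, and Gss -0.21 with its most variable probe set.

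**Figure D5:**
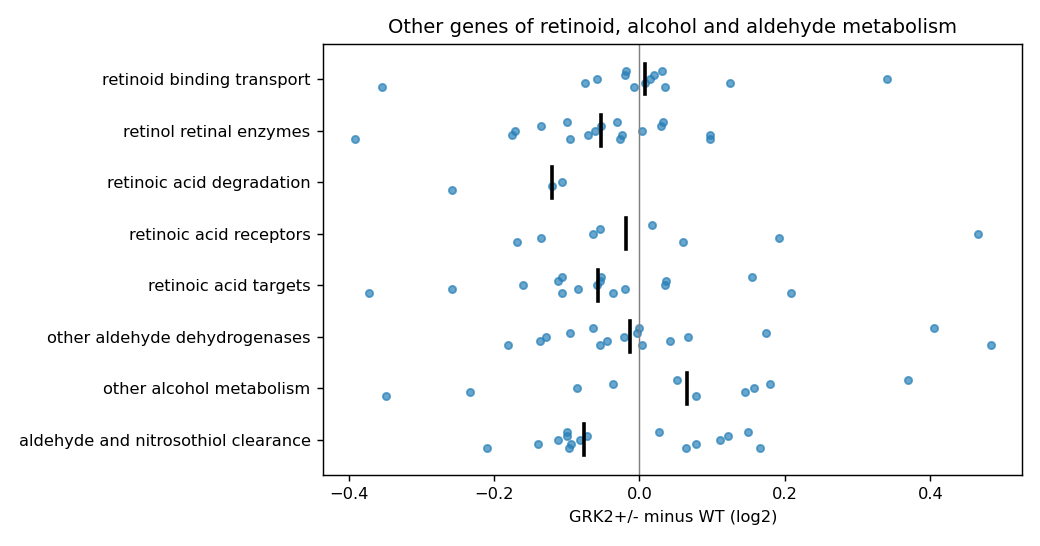
GRK2+/- minus WT difference (log2) of each measured gene of the 8 lists, with a black bar at the list median; vertical offsets within a list only separate points. List medians lie between -0.12 and 0.07, and no gene passed the adjusted test.

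Markers of cell types were read beside these results as the log2 of their summed linear levels per heart. Cardiomyocyte markers summed to 17.99 to 18.01 in GRK2+/- and 17.98 to 18.00 in WT hearts over 10 genes, 4 of them above 0. The brightest of them, such as Myl2 and Mb, lay near the top of the scale of 15.11, so this sum says little about differences between hearts. The calcium release channel Ryr2, below that top, differed by 0.35 ± 0.08 without overlap, the largest difference of the 10. Ttn differed by 0.10 ± 0.09 and Tnni3 by -0.0057 ± 0.07, both with overlap. Of 8 atrial markers 5 were above 0, and their levels spread widely. Nppa lay at the 91.85th and Stard10 at the 82.44th percentile of the gene table, Myl4 at the 48.92nd, and Myl7 and Sln at the 21.41st and 23.6th. The atrial sum, from 10.91 to 11.37 in GRK2+/- against 11.58 to 12.00 in WT hearts, followed Nppa, which differed by -1.20 ± 0.27. Without Nppa, a choice made after its value was seen, the sum overlapped at 9.98 to 10.21 against 9.90 to 10.25. That sum followed Stard10 (9.40 and 9.43), the brightest of the 7 genes left, so it says little about the others. Among those, Myl7 was 0.11 ± 0.07 without overlap and Bmp10 -0.19 ± 0.08 with overlap. The fat cell markers Adipoq (4.48 and 4.50) and Lep (4.61 and 4.81) were near the bottom of the scale. The sum over the 6 measured of 8 listed fat cell genes, 3 of them above 0, was 14.01 to 14.07 against 13.95 to 14.01, separated only in the third decimal. That sum followed Fabp4 (13.86 and 13.77), the brightest of the 6. Fibroblast markers, 8 of 11 above 0, overlapped in their sum at 14.86 to 14.93 against 14.79 to 14.92, as did endothelial markers (6 of 8 above 0, 12.54 to 12.67 against 12.37 to 12.58). The fibroblast sum followed its brightest genes, Gsn and Dcn. Col1a1 (0.30 ± 0.11) and Ddr2 (0.15 ± 0.06) were higher without overlap, and 0 fibroblast markers lower. The endothelial markers Kdr (0.55 ± 0.12) and Tek (0.23 ± 0.09) were higher without overlap. Esam (-0.15 ± 0.07) and Pecam1 (-0.12 ± 0.07) were lower without overlap. Sums of smooth muscle and pericyte markers (8 of 9 above 0, 14.57 to 14.69 against 14.38 to 14.51), epicardial markers (7 of 10 above 0, 9.43 to 9.44 against 9.23 to 9.35) and leukocyte markers (5 of 8 above 0, 11.86 to 12.39 against 11.54 to 11.69) did not overlap and were higher in GRK2+/- hearts. All 10 epicardial markers had means below that of the median gene, so their sum rests on dim levels. The leukocyte sum followed S100a8 (1.97 ± 0.29) and S100a9 (2.25 ± 0.33), which neutrophils carry in quantity. The general leukocyte marker Ptprc was 0.42 ± 0.12, with overlapping groups and only 1 of its 2 probe sets in that direction. The macrophage genes Csf1r and Adgre1 were 0.13 ± 0.07 and 0.02 ± 0.10, while Cd68, Cd3e and Cd79a were below 0. Without S100a8 and S100a9, again chosen after their values were seen, the sum ran from 11.51 to 11.65 against 11.41 to 11.51, an overlap in the third decimal. Erythroid markers overlapped (2 of 3 above 0, 9.74 to 9.97 against 9.16 to 10.11). For the beta-actin control, the 3′ probe set exceeded the 5′ one, a measure of RNA integrity, by 0.98 ± 0.08 in GRK2+/- and 0.78 ± 0.04 in WT hearts (SD, n = 3), a shift of 0.20. The same shift was -0.27 in 18S ribosomal RNA, -0.10 in the transferrin receptor and 0.02 in both pyruvate carboxylase and Gapdh, so the controls did not share a direction. The groups did not overlap for beta-actin, at 0.90 to 1.06 against 0.73 to 0.80, and overlapped for each of the other controls. The part of these markers and of RNA integrity in the Adh1 difference was not tested.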

How the data were processed

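Total RNA from 6 mouse hearts was hybridised to Affymetrix arrays, 1 per heart. The deposited values are log2 levels per probe set; RMA and limma were used per the submitters' processing notes, with versions and joint normalisation not given in the sources used here. The 64 control probe sets were left out, probe sets with 1 symbol in the platform annotation were named (symbols updated through Entrez identifiers to the RefSeq table of GRCm38.p6), and where a gene had several, its brightest by mean stood for it. Differences and SE came from limma 3.58.1 under R 4.3.3 (two-sided moderated statistics from lmFit and eBayes) on the values as deposited, with Benjamini-Hochberg adjustment over all genes and a threshold of 0.05; the fit was tested on simulated data. For 3 hearts a side the smallest two-sided p of an exact permutation test is 0.1. The members and gene lists were chosen with earlier results of these data known. Named were every member, the 3 list genes with the smallest p per list together with any past the threshold, and the 5 nearest profiles to Adh1 among genes at or above the median level, clone names left out; the genes around Adh1 in the chromosomal order, Rarb, and the markers were named after their values had been seen. Same-numbered hearts of the groups did not deviate together over genes (correlations of -0.183, -0.0051 and 0.0159), so the numbers were not taken as pairs. Alternatives changed scaling, probe set choice, the eBayes prior, array weights, the filter on dim genes and the hearts included.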

Additional observations from a re-analysis of the deposited data

How the results depend on the processing

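The Adh1 difference lay between -1.48 and -1.12 in all 11 alternatives tried for it, and the Aldh1a1 difference stayed below 0 in all 11, between -0.27 and -0.13. The replicate block and the choices of probe set could not change either, as the groups are balanced and each gene has just 1 probe set. Only rescaling and leaving out hearts could move these 2 differences. Signs changed in at least 1 alternative for Adh5, Adh7, Aldh1a2, Aldh1a3 and Rdh10. Adh5 was -0.0802 with the mean of its probe sets and -0.166 with the most variable, and Aldh2 was 0.293 with its most variable probe set. Among all genes, in place of 0 with an adjusted p under 0.05 there were 1 with the replicate block, 12 with the most variable probe set, 12 with array weights, 42 with a prior trended on level, and 0 to 56 when a heart was left out (56 without GRK2+/- heart 1). That prior also called 1 retinoic acid target, Tgm2. At an unadjusted p under 0.05, lower genes numbered 890 after centring, against 1400; with a heart left out they numbered 902 to 1610, and higher genes 712 to 1444. Centring left 1 member probe set, Adh1, without overlap and lower. With the replicate block the unadjusted calls numbered 1243 lower and 1035 higher, and no list gene passed the adjusted test. Of 120 recomputed list medians 8 changed sign. Dim probe sets, such as 1421058_at of Adh7, limit what can be read from their differences.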
